A study of Mus musculus with 3 samples.

Results

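The genes described here were markers of the visceral endoderm and apolipoproteins: Afp, Ttr, Apoa1, Apob, Apoe, Amn, Cubn, Dab2, Foxa2 and Sox17. They were chosen as a list of names, 10 of the 27886 genes that at least 1 of the 3 count tables held. In mESC 7 of them were listed (not Afp, Ttr and Foxa2), in CPCC 8 (not Ttr and Apob) and in CB all 10. A table held only genes whose highest value in a cell reached 1, so an unlisted gene is one without a value, which is not the same as a value of 0. The cells were male F1 hybrids of C57BL/6J and CAST/EiJ, profiled as single cells in 3 cultures. These were mouse embryonic stem cells (mESC, 215 cells), cardiac precursor cell cultures derived from them through embryoid bodies (CPCC, 175 cells) and cardiac bodies, floating aggregates that were picked because they beat (CB, 232 cells). The sources used here name no deletion, transgene or cell sort. There was 1 sample per culture. The title of the mESC sample calls it a triplicate, but no column name says which replicate a cell came from. No difference between cultures therefore has a replicate check, and no p-value is given.

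The visceral endoderm is the epithelium that surrounds the early embryo. It takes up maternal nutrients by endocytosis and secretes plasma proteins before the liver does so. Afp and Ttr encode carrier proteins of the serum, Apoa1, Apob and Apoe encode the protein part of lipoprotein particles, Cubn and Amn form an endocytic receptor, and Dab2 is the adaptor that links such receptors to clathrin. Foxa2 and Sox17 are transcription factors of the endoderm. Several of these genes also have uses elsewhere: Apoe and Dab2 are abundant in macrophages, Sox17 is a factor of arterial endothelium, and Foxa2 is found in many epithelia. Parietal endoderm, the other extraembryonic endoderm, lays down a laminin and collagen basement membrane and does not make the plasma proteins.

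Of the 10 genes, 8 had a promoter window among those used here from the RefSeq table (GRCm38.p6). Each window runs from 250 bases before the annotated start to 50 bases after it. The windows below are those of the 5 genes with a single entry. They are shown because these 5 genes were found in the same CB cells. Capitals mark matches on either strand to 5 short motifs. The letters searched were TATAAA for the TATA box, CAAAGTCCA for an HNF4-type site and AGATAA for the GATA factors. For forkhead factors such as Foxa2 the letters were TGTTTAC, and as a separate motif TGTTTGC. The windows lie at chr5:90490464-90490763 (Afp), chr9:46228380-46228679 (Apoa1), chr12:7977427-7977726 (Apob) and chr12:111270846-111271145 (Amn), all on the + strand, and at chr2:13491827-13492126 on the - strand (Cubn).
Afp: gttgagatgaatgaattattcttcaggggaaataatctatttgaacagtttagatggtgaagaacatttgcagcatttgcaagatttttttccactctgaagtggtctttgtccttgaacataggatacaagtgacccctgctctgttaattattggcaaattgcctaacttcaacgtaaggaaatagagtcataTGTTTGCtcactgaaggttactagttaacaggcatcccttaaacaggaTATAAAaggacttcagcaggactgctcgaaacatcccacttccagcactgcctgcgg
Apoa1: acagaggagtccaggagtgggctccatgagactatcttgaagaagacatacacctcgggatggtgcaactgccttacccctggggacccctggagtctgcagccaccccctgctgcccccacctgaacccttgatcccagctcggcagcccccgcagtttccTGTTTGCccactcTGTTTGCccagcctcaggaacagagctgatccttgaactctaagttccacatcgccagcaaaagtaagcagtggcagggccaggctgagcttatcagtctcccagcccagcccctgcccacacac
Apob: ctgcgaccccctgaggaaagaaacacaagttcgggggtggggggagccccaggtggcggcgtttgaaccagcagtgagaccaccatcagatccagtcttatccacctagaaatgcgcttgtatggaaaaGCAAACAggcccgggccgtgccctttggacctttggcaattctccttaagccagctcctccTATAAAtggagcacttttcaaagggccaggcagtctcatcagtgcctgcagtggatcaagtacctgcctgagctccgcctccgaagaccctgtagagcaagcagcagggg
Amn: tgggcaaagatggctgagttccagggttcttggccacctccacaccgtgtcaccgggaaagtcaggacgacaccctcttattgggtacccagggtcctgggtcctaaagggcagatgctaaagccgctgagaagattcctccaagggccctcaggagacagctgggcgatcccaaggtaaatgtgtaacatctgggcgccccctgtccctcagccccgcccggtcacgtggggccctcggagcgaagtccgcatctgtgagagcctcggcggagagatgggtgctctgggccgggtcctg
Cubn: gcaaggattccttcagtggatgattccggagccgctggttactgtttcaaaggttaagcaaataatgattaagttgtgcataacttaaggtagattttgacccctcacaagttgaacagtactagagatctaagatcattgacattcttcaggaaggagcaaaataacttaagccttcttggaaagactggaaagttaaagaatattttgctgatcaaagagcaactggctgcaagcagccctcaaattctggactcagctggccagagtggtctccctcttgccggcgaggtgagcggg

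The forkhead motif TGTTTGC was found in the windows of Afp (-55 to -49 from the start), Apoa1 (-88 to -82 and -75 to -69) and Apob (-121 to -115, on the other strand). It was found in 5.08% of all 32544 distinct windows. The Afp window also held TATAAA at -7 to -2, and the Apob window TATAAA at -60 to -55. TATAAA was in 13.6%, TGTTTAC in 3.66%, AGATAA in 11.2% and CAAAGTCCA in 0.479% of all windows. The Amn and Cubn windows held none of these letters. A match describes the sequence and is not evidence that a factor binds there.

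Depth was similar between cultures, with medians of 1528316 counts per cell in mESC, 1437414 in CPCC and 1397869 in CB. It ranged within cultures from 4 to 8105511 counts, and 12 mESC, 6 CPCC and 13 CB cells held under 100000 counts. No column name was shared between tables. The columns named pools of libraries, 3 in mESC, 2 in CPCC and 3 in CB, and nothing said which clone or culture a pool held, so pools are given side by side and were not treated as replicates. The labels were checked against marker lists: 201 of 215 mESC cells had 5 or more of 10 pluripotency markers at 10 or more counts, as did 76 of 175 CPCC and 0 of 232 CB cells. Only 5 CB cells had 5 or more of 10 cardiomyocyte markers, although the label names cardiac cells, whereas 108 had 5 or more fibroblast markers and 72 had 5 or more mesothelial and epithelial markers. Levels below are CPM, the usual scaling of counts to the total of a cell or of the summed cells. Intervals are exact at 95% (Poisson for summed counts, Clopper-Pearson for shares). Reads carried no molecular identifiers, so intervals cover counting error only.

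The 10 genes fell into those used by many cells and those carried by a few. Apoe was detected, at 1 or more counts, in 96.7% of mESC, 97.1% of CPCC and 80.6% of CB cells. Dab2 was detected in 34.4%, 56.0% and 56.0%. Every other gene of the list was detected in at most 11.6% of the cells of any culture. In mESC, 118 cells were needed to reach 90% of the Apoe counts, and in CB 51 cells. For Afp, Ttr, Apoa1, Amn and Cubn in CB, 5 cells reached 90% of the counts, and for Apob 6 cells did. In the plot of cumulative shares these 6 curves rise together and are near 100% at 6 cells.

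**Figure D1:**
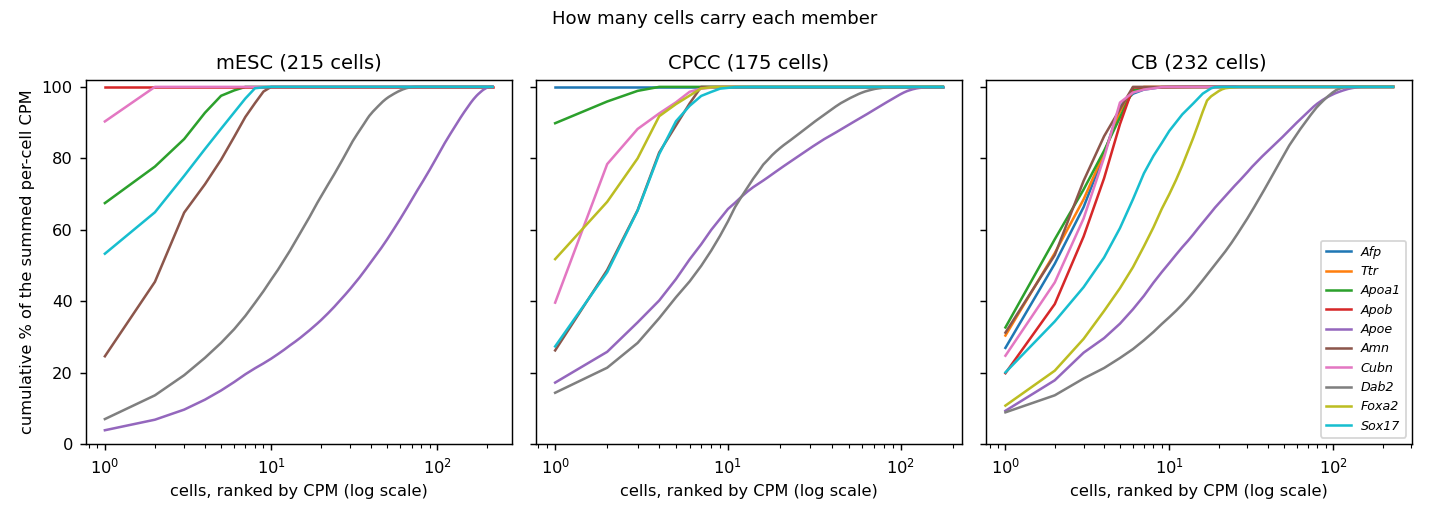
Cumulative percentage of the CPM summed over single cells (y axis) against cells ranked by CPM from the highest (x axis, log scale), with 1 line per listed gene in each culture. In CB the lines of Afp, Ttr, Apoa1, Apob, Amn and Cubn reach almost 100% within 6 of 232 cells, whereas Apoe and Dab2 need over 50 cells for 90% of their counts.

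Afp, the main serum protein of the embryo (chromosome 5, 90490737 to 90508907, + strand), was at 231 CPM in the summed CB cells (229 at the lower bound) and at 0.134 CPM in CPCC. The CPCC value came from 37.0 counts in a single cell. Within CB it was at 8.0 CPM in pool 1, 588 in pool 2 and 0 in pool 3, so 1 pool held nearly all of it. Ttr, the carrier of thyroxine and of retinol-binding protein, was listed in CB only, at 90.1 CPM, with 4.65, 229 and 0 CPM in the 3 pools. The ranking of the pools was the same for both genes.

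Apoa1, the main protein of high-density lipoprotein (chromosome 9, 46228580 to 46230466, + strand), was at 0.236 CPM in mESC, 0.275 in CPCC and 211 in CB. The mESC level rested on 83.0 counts, 80.7% of them in 1 cell, and the CPCC level on 76.0 counts, 77.6% of them in 1 cell. In CB 1 cell held 43.2% of the Apoa1 counts, and without it the level was 121 CPM. In the 3 CB pools Apoa1 was at 2.81, 539 and 0.132 CPM. Apob, the large scaffold of low-density and very-low-density lipoprotein (chromosome 12, 7977648 to 8016835, + strand), was at 0.0997 CPM in mESC, all 35.0 counts in 1 cell, and at 40.4 CPM in CB. Pool 2 held all of its CB counts, at 103 CPM against 0 in pools 1 and 3.

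Amn, the membrane anchor of the cubam receptor (chromosome 12, 111271095 to 111276426, + strand), was low in mESC and CPCC, at 0.362 and 0.301 CPM, in 10 and 7 cells. In CB it was at 5.09 CPM and was found in 6 cells, all of pool 2, with 0 counts in the other 226 cells. Cubn, its ligand-binding partner (chromosome 2, 13276338 to 13491813, - strand), was at 0.607 CPM in mESC, where 1 cell held 95.8% of 213 counts, at 1.04 CPM in CPCC and at 31.7 CPM in CB. Of its CB counts, pool 2 again held nearly all, at 81.1 CPM against 0 and 0.0417.

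The cells behind these CB values were the same 6 cells. Each of them held 9 of the 10 genes at 10 or more counts, all but Sox17, and no cell held 8. The next CB cell held 7 genes and the ones after it 4. The group was set after the values were seen and gets no test. The 6 cells were 2.59% of the CB cells (95% interval 0.955 to 5.54) and 7.69% of pool 2. They held 99.3% of the Afp, 99.0% of the Ttr, 99.6% of the Apoa1, 99.8% of the Apob, 100% of the Amn and 98.7% of the Cubn counts of CB. By contrast, they held 21.9% of the Apoe, 19.9% of the Dab2, 26.0% of the Foxa2 and 0.0274% of the Sox17 counts.

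Within the 6 cells Afp ranged from 1465 to 10836 CPM with a median of 6169, and its highest value in the other 226 CB cells was 466. Ttr ranged from 914 to 4918 CPM (median 2266), against at most 214 elsewhere. Apoa1 ranged from 2792 to 12013 CPM (median 4557), against at most 144. Apob ranged from 787 to 1526 CPM (median 1354), against at most 2.90. For these 4 genes no other CB cell reached the lowest of the 6.

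Apoe, which carries lipid between many cell types, ranged from 3537 to 8107 CPM in the 6 cells (median 7764). Here the ranges overlapped, since other CB cells reached 18572 CPM. The endocytic receptor was present in all 6: Amn ranged from 57.2 to 286 CPM (median 153) and Cubn from 172 to 1518 (median 1073), against at most 0 and 51.4 elsewhere. Dab2 ranged from 502 to 1662 CPM (median 741) and Foxa2 from 19.5 to 106 (median 66.5). Both overlapped with other cells, which reached 3103 and 179 CPM. Sox17 was at 0 in 5 of the 6 cells and at 0.958 CPM in the remaining one.

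Per kilobase of exon, which allows levels to be compared between genes, the medians over the 6 cells were 3687 CPM per kb for Apoa1, 3631 for Apoe, 1911 for Ttr and 1832 for Afp. They were 101 CPM per kb for Dab2, 97.2 for Apob, 82.9 for Amn, 71.9 for Cubn and 28.1 for Foxa2. Apoa1, Apoe, Ttr and Afp therefore stood above the receptor genes. The transcription factors were lowest, with Foxa2 above Sox17, whose median was 0. Together the 10 genes took between 20987 and 32538 CPM of each of the 6 cells. These cells were not shallow: they held 1043842 to 2563376 counts (the other 72 cells of pool 2 had a median of 1683608), 7900 to 10529 genes (7320) and 4.91% to 10.7% mitochondrial counts.

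**Figure D2:**
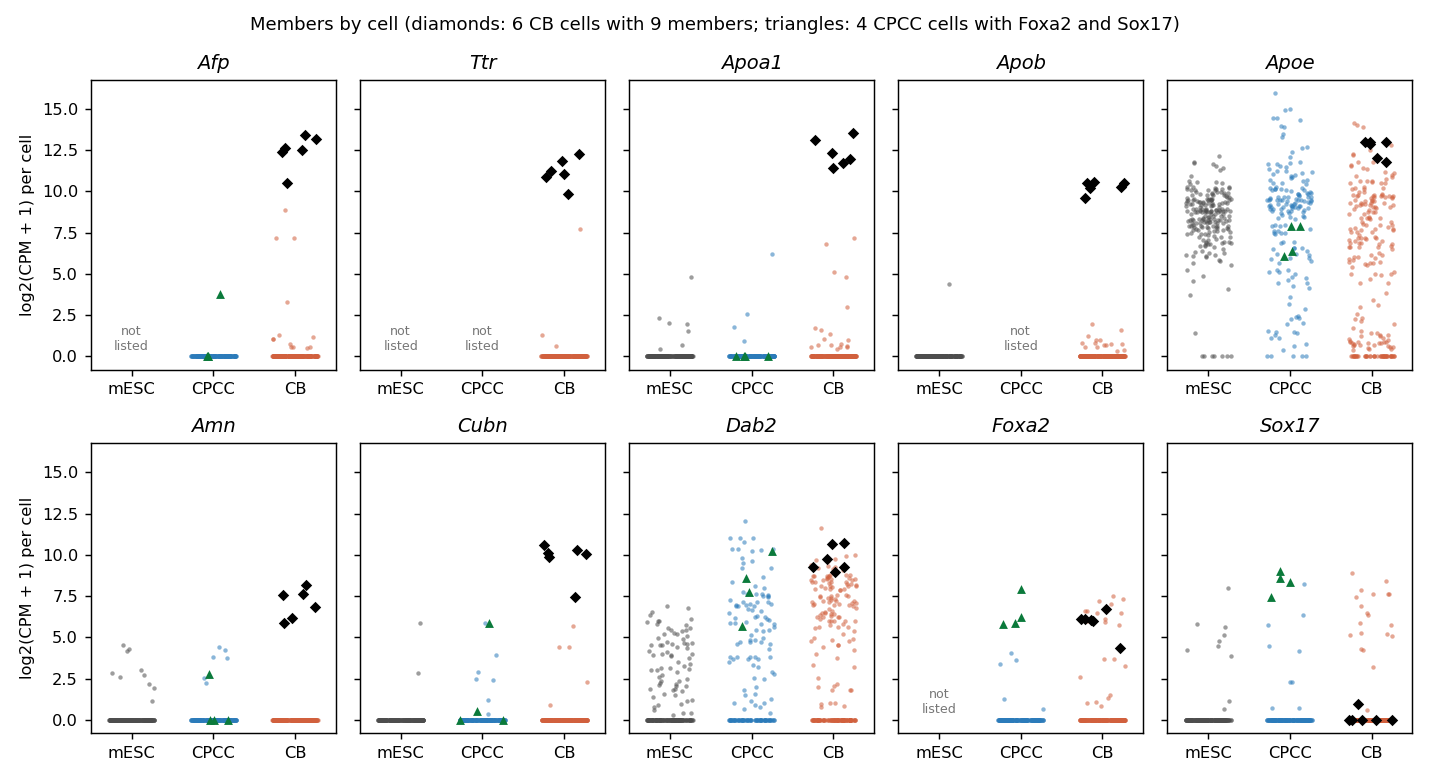
Level of each gene in every cell, as log2(CPM + 1) on the y axis, by culture on the x axis. Black diamonds are the 6 CB cells with 9 of the genes, green triangles the 4 CPCC cells with Foxa2 and Sox17, and small points all other cells. The diamonds stand clear of the other CB cells for Afp, Ttr, Apoa1, Apob, Amn and Cubn, lie within them for Apoe, Dab2 and Foxa2, and are at or near 0 for Sox17.

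Genes that had no part in choosing the 6 cells were found there too. Of all 24229 genes listed in CB, 24.5% were at 10 or more counts in most of the 6 cells and 2.10% had over 50% of their CB counts there. Of 18 other secreted plasma proteins on a list, 15 were listed in CB, 11 were at 10 or more counts in most of the 6 cells, and 11 had over 50% of their CB counts there. Rbp4, the retinol-binding protein that travels with Ttr, ranged from 5792 to 9436 CPM and had 94.5% of its counts in the 6 cells. Trf, the iron carrier transferrin, ranged from 1009 to 2996 CPM (58.1% of its counts). The fibrinogen chains Fga, Fgb and Fgg had 100%, 95.5% and 98.7% of their counts there. Alb, the main serum protein of the adult liver, was at 10 or more counts in 1 of the 6 cells only, with 23.0% of its counts in the 6. Igf2, a growth factor also on that list, was at 0 in all 6 and reached 9103 CPM in other CB cells.

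Of 19 other genes of apolipoproteins and lipid transport, 18 were listed in CB, 9 were found in most of the 6 cells (24.5% over all genes), and 10 had over 50% of their counts there (2.10% over all genes). Apoa2, the second protein of high-density lipoprotein, ranged from 2592 to 11337 CPM with 99.4% of its counts in the 6 cells. Apom ranged from 1703 to 3531 CPM and Apoc2 from 311 to 3777 CPM, and neither reached 10 counts in any other CB cell. Apoa4 was at 10 or more counts in 5 of the 6 cells and in no other. Mttp, which loads lipid onto Apob, ranged from 89.8 to 577 CPM, with 52.0% of its counts there. Pltp was at 0 in all 6 cells while 98 other CB cells had it, and Apod, the apolipoprotein found in 35 other CB cells, reached at most 4.79 CPM. The apolipoprotein genes thus did not form 1 group: Apoa1, Apoa2, Apob, Apoc2 and Apom were in the 6 cells and Apod in other cells.

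Of 12 absorptive receptors and endocytosis genes, 12 were listed, 8 were found in most of the 6 cells (24.5% over all genes) and 2 had over 50% of their counts there (2.10% over all genes). Many other cells had genes of this list too, with a median of 4 and up to 8 per cell at 10 or more counts in the other CB cells. Lrp2, the megalin receptor that works with cubilin, ranged from 98.7 to 446 CPM with 43.2% of its counts in the 6 cells. Its chaperone Lrpap1 ranged from 76.2 to 1228 CPM, and 154 other CB cells had it at 10 or more counts. The 2 genes with over 50% were no receptors of endocytosis: Cited1 (67.6% of its counts) is a transcriptional coregulator and Slc39a4 (83.8%) a zinc importer.

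Of 14 visceral endoderm factors, 13 were listed, and 3 were found in most of the 6 cells, a share near the 24.5% over all genes. Of the 14, 8 reached 10 counts in none of them, Cer1, which CB did not list, included. Hnf4a, the nuclear receptor that drives hepatic and visceral endoderm genes, ranged from 68.8 to 455 CPM with 97.2% of its CB counts in the 6 cells. Rhox5, a homeobox gene of extraembryonic tissue, ranged from 642 to 1105 CPM with 84.1%. Gata6 was at 10 or more counts in 5 and Gata4 in 3 of the 6 cells, with 2.10% and 6.69% of their counts. Sox7, Hhex, Otx2, Lhx1, Eomes and Bmp2 were at 0 in all 6 cells. Foxa1, a relative of Foxa2 found in 39 other CB cells, reached at most 1.17 CPM.

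Markers of other cell types in the 6 cells were counted over whole lists. Of 10 mesothelial and epithelial markers, each cell held 5 or 6 at 10 or more counts, summing to 2050 to 3974 CPM, against a median of 1 marker and 44.6 CPM in the other CB cells. Krt18 ranged from 775 to 2039 CPM and Epcam from 120 to 553, while 4 markers of that list reached 10 counts in none. Each cell held 3 to 7 of 10 parietal endoderm markers (1204 to 2898 CPM in sum), close to the other CB cells, which had a median of 4.5 and 1670 CPM. Macrophage markers numbered at most 2 (0 to 93.0 CPM), endothelial at most 2 (up to 70.9 CPM), fibroblast at most 1 (8.88 to 194 CPM), cardiomyocyte at most 1 (up to 14.7 CPM) and neural at most 1 (up to 23.4 CPM). Pluripotency markers numbered 2 to 4 (98.2 to 402 CPM). Of these, Zfp42 was at 10 or more counts in all 6 cells and in no other CB cell, with 97.6% of its CB counts there. Tfcp2l1 was in all 6 and in 6 other cells (54.1%). Esrrb, at only 0.112 CPM in CB, was in 1 of the 6 (89.5%). The rest of the listed pluripotency markers were not concentrated there. Nanog, Sox2, Klf2 and Tdgf1 reached 10 counts in none of the 6, and Klf4 was in 5 of them with 0.889% of its counts. Of 12 definitive endoderm and gut genes, 9 were listed, 3 were found in most of the 6 cells (24.5% over all genes) and 1 had over 50% of its counts there. This was Tff3, a secreted gut peptide, with 99.5% of its counts, whereas Cxcr4 was at 0 in all 6.

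**Figure D3:**
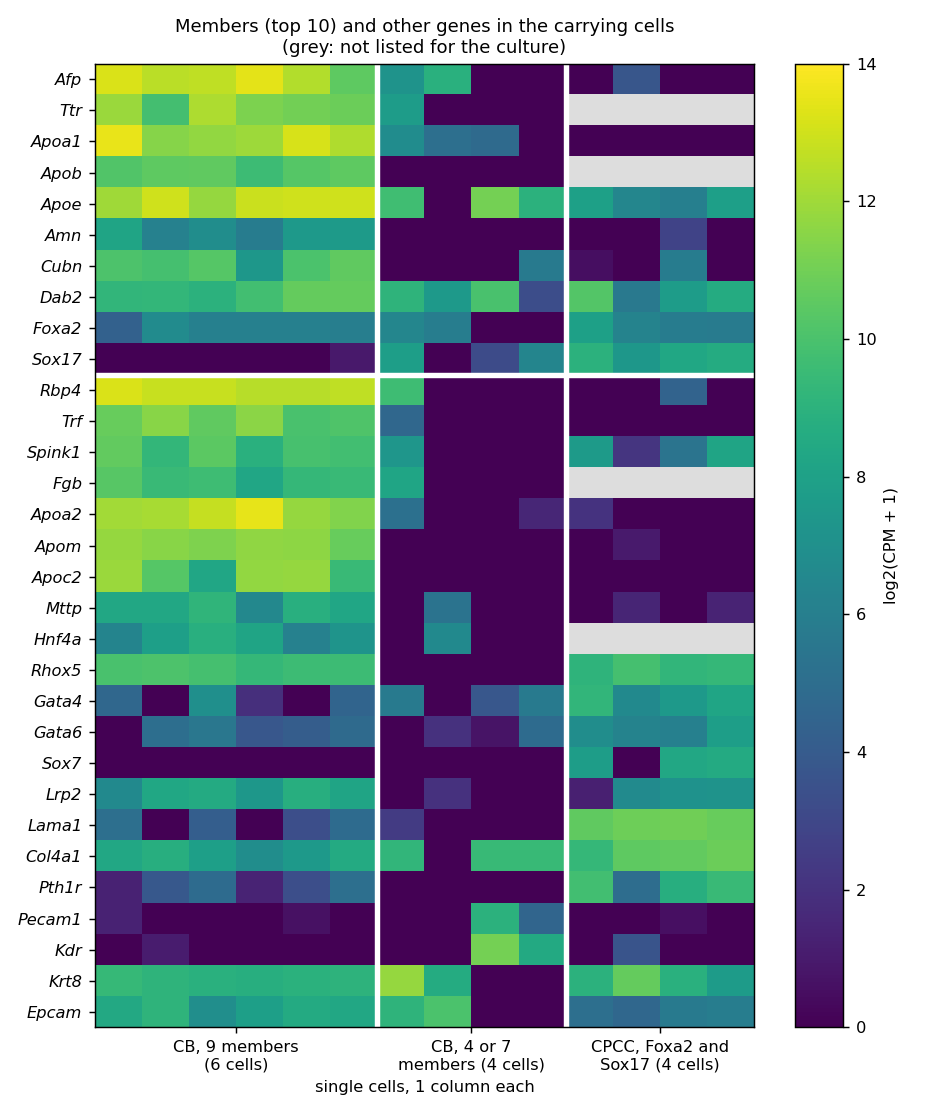
Level of the 10 genes (above the white line) and of 21 other genes in single cells, as log2(CPM + 1) by colour, with 1 column per cell. The 6 CB cells at the left carry the plasma protein and apolipoprotein genes, the 4 CPCC cells at the right carry Sox17 and Lama1 and hold Foxa2 as well, and the 4 CB cells between them hold 7 or 4 of the genes, at lower levels for Afp, Ttr and Apoa1.

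The CB cells with the next highest numbers of the genes were 4. The cell with 7 genes, of pool 1, held Afp at 144 CPM, Ttr at 214, Apoa1 at 113, Apoe at 842, Dab2 at 559, Foxa2 at 86.2 and Sox17 at 231 CPM. Apob, Amn and Cubn were at 0 in it. A second pool 1 cell held Afp at 466 CPM, Apoa1 at 33.7, Dab2 at 184 and Foxa2 at 59.8 CPM, and no counts of the other 6 genes. The remaining 2 cells with 4 genes, of pool 2, held Dab2, Apoe and Sox17 with Apoa1 (27.5 CPM) or Cubn (51.4 CPM), and had 9 and 10 of the 10 endothelial markers at 10 or more counts.

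Low counts of the same genes were seen around the 6 cells. Between 1 and 9 counts of Afp were found in 10 other CB cells, all of them among the 72 other cells of pool 2. The same held for 15 cells with Apob, and for 12 of 14 with Apoa1. For Ttr there were 2 such cells, both in pool 2, and for Amn none. The 6 cells are of that pool as well, and exchange of reads between libraries pooled together was not tested as a source of these low counts. At 10 or more counts, which the counts of genes per cell above require, Afp was in 3, Ttr in 1, Apoa1 in 4 and Apob in 0 cells outside the 6.

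Dab2 (chromosome 15, 6299788 to 6440712, + strand) was at 9.75 CPM in mESC, 208 in CPCC and 147 in CB. By pool it was at 9.74, 6.09 and 14.6 CPM in mESC, 49.1 and 358 in CPCC, and 168, 166 and 120 in CB. Every CPCC and CB pool was above every mESC pool, and the CPCC pools differed most. In CPCC, the 19 cells with 5 or more of 10 macrophage markers, all of pool 2, held 69.1% of the Dab2 counts, with a median of 884 CPM against 0.469 in the other 156 cells. Without these cells the CPCC level was 74.3 CPM. In CB the cells with 5 or more macrophage markers numbered 4 and held 7.10% of the Dab2 counts. The 108 CB cells with 5 or more fibroblast markers held 55.7%, being 46.6% of the cells.

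Apoe (chromosome 7, 19696109 to 19699188, - strand) was at 528 CPM in mESC, 2326 in CPCC and 924 in CB. By pool it was at 435, 686 and 417 CPM in mESC, 672 and 3876 in CPCC, and 960, 968 and 869 in CB. Thus 1 CPCC pool lay within the range of the mESC pools and the other far above all pools. The median single cell ran in another order, with 389 CPM in mESC, 535 in CPCC and 110 in CB. In mESC no cell exceeded 4569 CPM and the highest cell held 4.48% of the counts.

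In CPCC, 5 cells held 50% of the Apoe counts, and the 10 cells with the most Apoe each had all 10 macrophage markers. The 19 cells with 5 or more of these markers held 79.7% of the counts at a median of 10312 CPM, against 463 CPM in the other 156 cells. The result was almost the same at a minimum of 4 markers (21 cells, 79.9%) and 6 (17 cells, 79.5%). Without the 19 cells Apoe was at 545 CPM in CPCC, near its mESC level. Of these 10 cells, 1 also held 8 endothelial markers and was the only cell with Sox17 among the 19. In CB, 4 such cells, at a median of 16203 CPM, held 26.1% of the Apoe counts, and the 6 cells described above held 21.9%. Their numbers are 1.72% and 2.59% of the culture. Those of the 4 cells that were among the 10 CB cells with the most Apoe also held 8, 5 and 7 of 10 fibroblast markers.

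**Figure D4:**
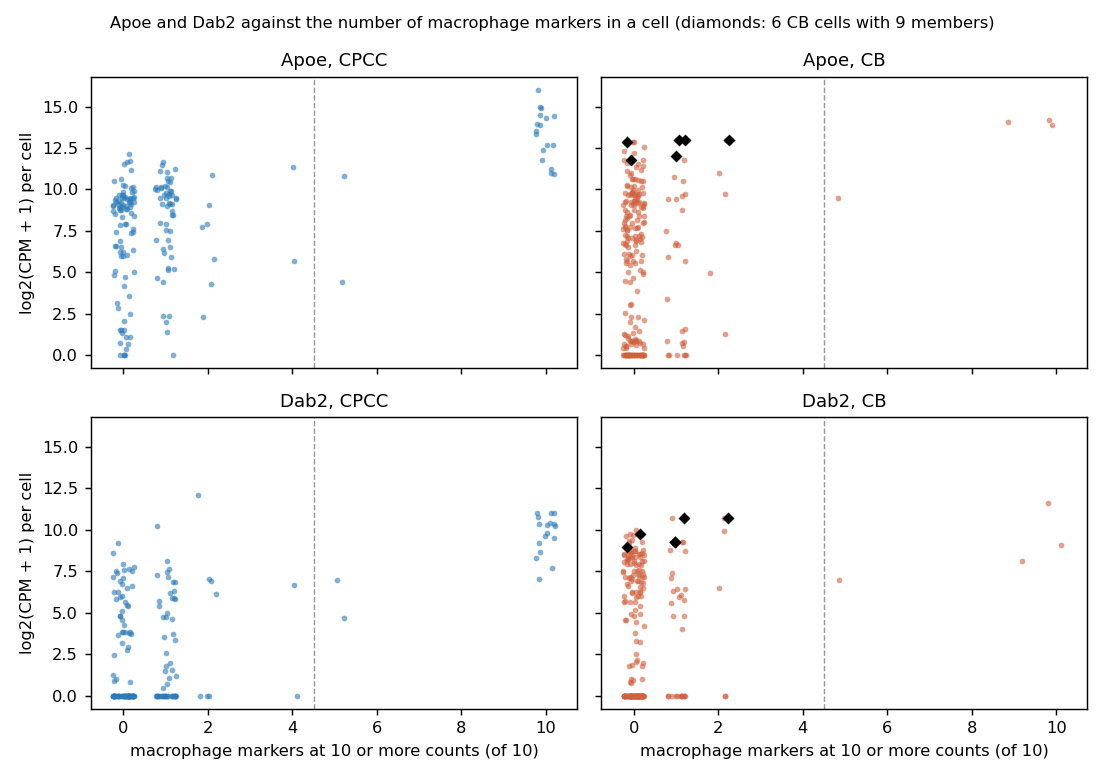
Level of Apoe (upper row) and Dab2 (lower row) per cell, as log2(CPM + 1), against the number of 10 macrophage markers found in the cell at 10 or more counts, for CPCC (left) and CB (right). Points are cells, spread sideways for view, black diamonds the 6 CB cells with 9 of the genes, and the dashed line the minimum of 5 markers. Most cells right of the line are high in both genes. The diamonds, with at most 2 macrophage markers, lie between 3537 and 8107 CPM for Apoe, below the median of 16203 CPM of the CB cells right of the line.

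Foxa2 (chromosome 2, 148042877 to 148046969, - strand) was listed at 3.90 CPM in CPCC, in 9 cells, and at 7.62 CPM in CB, in 27 cells. In CPCC 1 cell held 49.9% of the counts, and without it the level was 1.97 CPM. In CB its counts were spread, with 14 cells needed for 90%, and the 3 pools were at 8.71, 13.1 and 2.09 CPM. The 72 CB cells with 5 or more mesothelial and epithelial markers, which include the 6 cells, held 79.7% of the counts. Foxa2 was at 10 or more counts in 17 of these 72 cells and in 4 of the other 160. At a minimum of 6 markers the share was 57.5%.

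Sox17 (chromosome 1, 4490931 to 4497354, - strand) was at 2.63 CPM in mESC, 14.5 in CPCC and 10.8 in CB. In mESC it reached 10 counts in 8 cells, and the pools were at 0.534, 0.728 and 7.40 CPM. All 8 cells held 9 or 10 of the 10 pluripotency markers, and 1 of them also held Dab2. In CB the pools were at 8.27, 23.8 and 0 CPM. The 23 CB cells with 5 or more of 10 endothelial markers, all of pool 2, held 85.9% of the Sox17 counts. It was at 10 or more counts in 17 of these 23 cells and in 2 of the other 209. Those 2 were the pool 1 cell with 7 genes, which had 1 endothelial marker, and a pool 1 cell with 4 endothelial markers and Sox17 at 200 CPM.

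In CPCC, Foxa2 and Sox17 met in 4 cells of pool 1, each with over 100 counts of both, a group also set after the values were seen. They were 2.29% of the CPCC cells (0.626 to 5.75) and held 93.8% of the Foxa2 and 80.5% of the Sox17 counts. Sox17 was at 508, 171, 321 and 386 CPM in the 4 cells. Foxa2 was at 243, 75.3, 57.1 and 55.4 CPM in the same order. The highest values outside were 294 CPM for Sox17 and 15.9 CPM for Foxa2, so only Foxa2 had no overlap. Dab2 was at 1208, 50.3, 211 and 390 CPM, and Apoe at 244, 83.9, 66.0 and 236 CPM, below the median of 549 CPM in the other CPCC cells.

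Of the genes of secreted proteins among the 10, Afp and Apoa1 were nearly missing from these 4 cells, whereas Apoe was found in all 4. Afp had 37.0 counts (12.7 CPM) in the second of them and 0 in the rest, and Apoa1 was at 0 in all 4. Ttr and Apob were not listed in CPCC. Amn (5.91 CPM) and Cubn (57.6 CPM) reached 10 counts in the third cell only. Of all 23371 genes listed in CPCC, 7000 (30%) were at 10 or more counts in most of the 4 cells and 0.856% had over 50% of their counts there. Of the 18 plasma proteins 9 were listed in CPCC, and Spink1, a secreted trypsin inhibitor, was the only one found in most of the 4 cells, with 92.0% of its CPCC counts there (3.42 to 284 CPM). Of 19 apolipoprotein and lipid transport genes, 17 were listed in CPCC and 1 was found in most of the 4 cells, Apoo (27.7 to 68.0 CPM), which 126 other CPCC cells had as well.

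The 4 cells carried genes of the basement membrane and some of the endoderm factors. Each held 9 of 10 parietal endoderm markers at 10 or more counts, against a median of 3 in the other CPCC cells, with a sum of 10247 to 15166 CPM. Lama1, a laminin chain, ranged from 1516 to 2037 CPM with 93.1% of its counts there. Pth1r, a receptor of parathyroid hormone-related protein, ranged from 30.5 to 859 CPM (85.6%), and Fst, a binding protein of activin, from 511 to 1928 CPM (65.7%). Sparc ranged from 4896 to 8042 CPM but with 12.0% of its counts, since 147 other cells had it. Gata4 ranged from 101 to 594 CPM (58.7%) and Gata6 from 66.5 to 228 CPM (73.3%), and Sox7 was found in 3 of the 4 cells, with 74.7% of its counts. Pdgfra ranged from 72.4 to 355 CPM (76.3%). Of the 14 factors, 10 were listed in CPCC, 5 were found in most of the 4 cells (Gata4, Gata6, Sox7, Rhox5 and Bmp2) and 7 reached 10 counts in none, those not listed included. Otx2, Lhx1 and Eomes were at 0 in all 4 cells, and 46, 1 and 20 other CPCC cells had them at 10 or more counts. Hnf4a was not listed in CPCC. Of other marker lists, the 4 cells held at most 1 macrophage, 4 endothelial, 2 fibroblast and 2 neural markers each, with 4 or 5 mesothelial and epithelial and 3 or 4 pluripotency markers. They held 1 or 2 cardiomyocyte markers each, and 2 was also the most in any other CPCC cell. Of that list, Myl3, a myosin light chain, was at 10 or more counts in 3 of the 4 cells (at most 127 CPM, 66.7% of its CPCC counts), and Myh7, a myosin heavy chain, in 1 (65.4 CPM, 71.0%). The cells held 2030499 to 2920092 counts, more than the median of 1533157 in the other 75 cells of the pool.

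Set side by side, the 6 CB cells and the 4 CPCC cells both had Rhox5, Cited1 and Spink1 at 10 or more counts in every cell, and also genes that many other cells had, such as Apoe, Dab2, Krt8, Krt18, Epcam, Lrpap1, Ap2m1 and Sparc. Rhox5 ranged from 539 to 936 CPM in the CPCC cells (14.7% of its CPCC counts, with 56 other cells at 10 or more counts) and Cited1 from 200 to 642 (49.0%). Spink1 had 96.9% of its CB counts in the 6 cells and 92.0% of its CPCC counts in the 4. Afp, Apoa1 and Rbp4 were in each of the 6 cells and in at most 1 of the 4. Foxa2 and Sox17 chose the 4 cells, so their presence there is no finding. The 6 cells were picked by how many of the 10 genes they held. The presence of Afp, Apoa1 and Foxa2 in each of the 6 is therefore no finding either, whereas Rbp4 had no part in that choice. Sox17 was at most at 0.958 CPM in the 6 cells. The 2 groups come from separate cultures and from 1 pool each, so a difference between cultures and one between pools cannot be told apart.

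**Figure D5:**
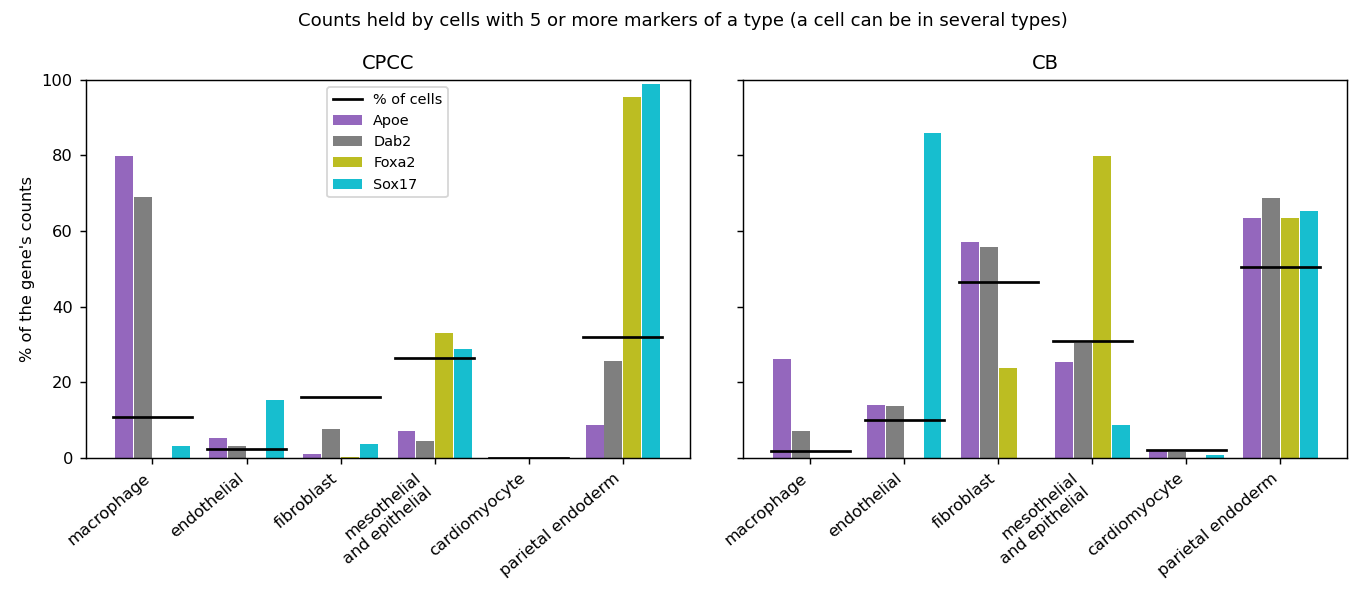
Percentage of the counts of Apoe, Dab2, Foxa2 and Sox17 (bars) held by cells with 5 or more of 10 markers of a cell type, in CPCC (left) and CB (right). Black lines give the percentage of cells of that type, and a cell can belong to several types. Bars far above the line are Apoe and Dab2 with macrophage markers, Sox17 with endothelial markers (15.4% of counts in 2.29% of cells) and Foxa2 and Sox17 with parietal endoderm markers in CPCC, and Apoe with macrophage (26.1% in 1.72%), Sox17 with endothelial and Foxa2 with mesothelial and epithelial markers in CB.

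The number of the 10 genes per cell was counted at 10 or more counts each. At least 3 were found in 3 of 215 mESC cells (1.4%, 0.289 to 4.02), 12 of 175 CPCC cells (6.86%, 3.59 to 11.7) and 24 of 232 CB cells (10.3%, 6.74 to 15.0). No mESC cell held 4. The highest number was 6 in CPCC, in 1 cell, and 9 in CB. These shares moved with the minimum and with Apoe and Dab2, which many cells have: without both, the shares were 0%, 1.14% and 3.45%, and mESC then had no cell.

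Pairs of genes, each at 10 or more counts, differed in how far they went together in CB. Afp was found in 7 of 7 cells with Ttr and in 2 of the other 225, and in 6 of 6 cells with Amn. Apoa1 was found in 8 of 9 cells with Afp and in 2 of 223 without it. Foxa2 was found in 8 of 9 cells with Afp (88.9%, 51.8 to 99.7) and in 13 of 223 without it (5.83%, 3.14 to 9.76). Dab2 was found in 8 of 9 cells with Afp, and in 107 of 223 without it. Sox17 and Apob, with 19 and 6 cells, were not found in the same cell at that minimum. In CPCC, Foxa2 was found in 4 of 10 cells with Sox17 and in 3 of 165 without it. In CB the same pair met in 1 cell, with 21 cells of Foxa2 and 19 of Sox17.

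Between cultures, summed levels were compared on CPM + 1, as the log2 of the ratio, a scale on which differences of low genes come out too small. A ratio counted as past the fold at 2 or more, or -2 or less, which is 4-fold. For CPCC over mESC, 6 of the 10 genes were listed in both, and 3 were higher past the fold, against 5.21% of 20272 genes. None was lower, against 1.04%. Dab2 had a ratio of 4.28 (4.23 to 4.34), Apoe of 2.14 and Sox17 of 2.09. The median of the 6 was 1.22, and that of all genes -0.02. Without the 4 CPCC cells with Foxa2 and Sox17, the Sox17 ratio was 0.11. Without the 19 cells with 5 or more macrophage markers, the Apoe ratio was 0.05 and the Dab2 ratio 2.81. Of the 3 genes, Dab2 was the one past the fold after each of these removals (4.23 without the 4 cells). Without its single highest cell Apoe had a ratio of 1.94.

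For CB over mESC, 7 genes were listed in both and 5 were higher past the fold, against 10.8% of 19855 genes, with none lower, against 3.04%. The ratios were 7.42 for Apoa1, 5.23 for Apob, 4.35 for Cubn, 3.78 for Dab2 and 2.16 for Amn, and the median was 3.78 (0.13 for all genes). Sox17 (1.70) and Apoe (0.81) were not past the fold. For CB over CPCC, 8 genes were listed in both and 4 were higher past the fold, against 4.74% of 20995 genes, with none lower, against 2.0%. These were Afp (7.68), Apoa1 (7.38), Cubn (4.0) and Amn (2.23), with a median of 1.52 over the 8 genes (0.14 for all genes). The ratio was 0.81 for Foxa2 and below 0 for Apoe (-1.33), Dab2 (-0.50) and Sox17 (-0.39). Without its single highest cell in each culture Amn was no longer past the fold, at 1.67 over mESC and 1.71 over CPCC.

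Most of these CB ratios rested on the 6 cells. Without them, the ratios over mESC were 0.52 for Apoa1, -0.03 for Apob, -0.16 for Cubn and -0.45 for Amn. Those over CPCC were 1.20 for Afp, 0.48 for Apoa1, -0.51 for Cubn and -0.38 for Amn. Dab2 kept a ratio of 3.51 over mESC. The median over the genes was 0.50 for CB over mESC and -0.37 for CB over CPCC. For 5 genes (Afp, Apoa1, Apob, Amn and Cubn) a ratio was therefore past the fold only with these cells, which came from 1 of 3 CB pools.

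The gene whose level was most like that of Afp, Apoa1, Apob, Ttr, Amn and Cubn together was sought by Pearson's r of log2(CPM + 1) over 219 CB cells with at least 100000 counts. The 5 genes with the highest r were Apom, Marc1, Smlr1, Slc7a9 and S100g, at 0.98 each. Each was at 10 or more counts in 6 cells. Without the 6 cells the r of Apom was 0.09, that of Slc7a9 0.14 and that of S100g 0.15. The 6 cells were picked by how many of the 10 genes they held, among them all genes of this pattern. The high r and its drop without these cells follow largely from that choice and are no finding. Cells of a culture share library batches and depth, and the values are descriptions. For Sox17 in CB the nearest genes were Flt1 and Icam2 (r of 0.76), Rasip1 (0.75), Cd38 and Emcn (0.74), and these values were 0.74 to 0.76 without the 6 cells too. For Sox17 in CPCC, over 169 cells, they were Pla2g12b (0.76), Drp2 and Pdgfra (0.73), Sox7 (0.69) and Gata6 (0.67). Without the 4 CPCC cells these were 0.16, -0.02, 0.30, 0.47 and 0.30. Flt1, Icam2 and Emcn are endothelial genes, and Pdgfra, Sox7 and Gata6 genes of primitive and parietal endoderm.

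For Apoe the nearest genes in mESC, over 203 cells, were Fabp3 (r of 0.56) and Apoc1 (0.53), the latter its neighbour on the chromosome. In CPCC they were Syngr1 (0.67), Ucp2 and Smagp (0.65), Pycard (0.61) and Apoc1 (0.59). In CB the values were lower, with Selenop (0.47) and Fn1 (0.42) first. For Dab2 in CPCC the nearest genes were Itm2b (0.66), Fxyd5 (0.65), and Lipa, Cd47 and C1qb (0.64), and in CB again Selenop (0.44). Apoe and Dab2 themselves had an r of -0.12 in mESC, 0.03 in CPCC and 0.41 in CB. The endoderm factors of CB stood apart from each other, with an r of -0.02 between Foxa2 and Sox17, against 0.67 in CPCC, which was -0.03 without the 4 CPCC cells.

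The same rule gave other genes for the remaining patterns. For Apoa1 in CB the nearest genes were Fgb (0.95), Apom, Ambp, Smlr1 and Marc1 (0.94), and without the 6 cells Fgb and Ambp were at 0.62 and Apom at 0.17. Smlr1 and Marc1 then had no value, since they did not vary. For Foxa2 in CB they were Slc39a4 (0.58), Golt1a (0.55), Ambp and Fgb (0.54) and Hnf4a (0.53), which were at 0.36, 0.33, 0.26, 0.25 and 0.23 without the 6 cells. For Dab2 in mESC all values were low, with Steap3, Vnn1 and Cphx3 at 0.36. For the mean of the listed genes among Afp, Apoa1, Apob, Amn and Cubn, the highest r was 0.49 in mESC (Acot3, at 10 or more counts in 6 cells) and 0.43 in CPCC (Slc39a2 and Prkce, at 0.23 and 0.30 without the 4 cells).

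Over whole cultures the other lists were counted by the same ratios. Over all genes, 10.8% were higher and 3.04% lower past the fold for CB over mESC, and the median ratio was 0.13. Of the 18 plasma proteins, 10 were listed in both CB and mESC and 6 were higher past the fold in CB, with a median ratio of 2.36. These were Trf, Rbp4, Fga, Fgg, Ambp and Igf2. All but Igf2 had most of their CB counts in the 6 cells, from 58.1% for Trf to 100% for Fga. Igf2 was at 129 CPM in CB and 0.037 in mESC and, as given above, was not in the 6 cells. Of the 19 apolipoprotein and lipid transport genes, 15 were listed in both, 6 were higher in CB (Apoa2, Apoc2, Apod, Apom, Mttp and Abca1) and 1 was lower (Apoc1), with a median of 1.22. Apoa2, Apoc2, Apom and Mttp had 52.0% or more of their CB counts in the 6 cells, and Apod and Abca1 at most 1.38%. Of the 14 factors, 10 were listed in both, 5 were higher in CB (Gata4, Gata6, Hnf4a, Foxa1 and Sox7) and 1 lower (Rhox5), with a median of 2.09. Hnf4a had 97.2% of its CB counts in the 6 cells, and the other factors higher in CB had at most 6.69%. Rhox5 was at 424 CPM in mESC, 165 in CPCC and 34.0 in CB, and 181 of 215 mESC cells had it at 10 or more counts. Of the 12 receptor and endocytosis genes, 12 were listed in both, 3 were higher (Lrp2, Lrp1 and Vldlr) and 1 lower (Slc39a4), with a median of 0.32. Of the 12 definitive endoderm and gut genes, 8 were listed in both and 4 were higher (Cxcr4, Cldn6, Trh and Sox21), with a median of 1.95.

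For CPCC over mESC the shares over all genes were 5.21% higher and 1.04% lower. Among the plasma proteins Trf was higher and Fetub lower, of 8 listed in both. Trf was at 56.4 CPM in CPCC, in cells other than the 4, where it was at 0. Among the lipid transport genes Abca1 and Apobec1 were higher and Apom and Lipc lower, of 15. Among the factors Gata4, Gata6 and Sox7 were higher, of 8, and among the receptors Lrp2, of 11. Among the definitive endoderm and gut genes Cldn6 and Trh were higher and Gsc lower, of 8.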

How the data were processed

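Single cells were captured on Fluidigm C1 chips, their messenger RNA was copied into full-length cDNA (SMART-Seq), and paired reads were aligned to mm10 by the authors with STAR 2.7 (per the submitters' processing notes) in the Partek Flow software, which also gave the gene counts. For each culture the authors deposited a single unscaled table of counts by gene and cell: estimated counts in mESC and CB (28.9% and 30.8% of values above 0 not whole) and whole counts in CPCC. The settings of the counting step and its use of strand were not given in the sources used here. In CPCC, 208 rows with no gene and 23 symbols turned into dates (0.139% of counts) and 2 columns without values were left out. Tables were linked to samples by culture name. Coordinates and exon lengths came from GENCODE on GRCm38, the build that the study names.

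Counts were used as deposited, and rounded for Poisson intervals, scaling factors and thinning to 430000 counts. A gene was detected at 1 count, and taken as carried by a cell at 10 counts. With 1 sample per culture no test was made. Ratios ran over all genes listed in both tables with a pseudocount of 1 CPM, and the script was tested on simulated counts. Alternatives used edgeR 4.0.16 (TMM) and DESeq2 1.42.0 size factors, in R 4.3.3. The rest was computed in Python 3.11.15 with numpy 2.4.6, pandas 2.3.3 and scipy 1.17.1. Nothing identified doublets in the tables, and no cell was removed. The genes, marker lists and alternatives were chosen with earlier results of these data known. The rule for naming genes took the 10 genes, the 3 most abundant genes of each list and the 5 nearest genes of each pattern. A pattern was a gene in at least 10 cells at 10 or more counts. Nearest genes had the highest Pearson's r among those at 10 counts in at least 5 cells. Not all of these genes are named in the text. Other list genes, and the groups of 6 CB and 4 CPCC cells, were picked after their values were seen.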

Additional observations from a re-analysis of the deposited data

How the results depend on the processing

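No paired analysis was possible because each culture is 1 sample, no number links columns of different cultures and nothing was tested. The median log2 ratio of the genes moved with the scale of low values. With pseudocounts of 0.1 and 10 CPM it was 1.42 and 0.51 for CPCC over mESC, 3.90 and 1.97 for CB over mESC, and 2.32 and 0.45 for CB over CPCC. With TMM and DESeq2 factors it was 3.52 and 3.54 for CB over mESC and 1.36 and 1.35 for CB over CPCC. Giving every cell the same weight made CB over mESC 4.12, keeping only genes at 1 CPM or more made CPCC over mESC 2.12, and leaving out the cell with most counts of the genes made CB over CPCC 1.19. Between single pools the median ran down to 0.12 for CPCC over mESC, from -0.47 to 4.56 for CB over mESC and from -0.39 to 3.55 for CB over CPCC, so the last 2 changed sign with the pool. In alternatives chosen after seeing the data, the medians without the 6 CB cells were 0.50 over mESC and -0.37 over CPCC, and CPCC over mESC was 0.08 without the 4 CPCC cells and 0.27 without the 19 CPCC cells with macrophage markers.

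The share of cells with 3 or more of the genes was 6.05%, 14.3% and 20.7% in mESC, CPCC and CB at 1 count per gene, and 0%, 2.86% and 4.31% at 100 counts. In thinned cells it was 0% in mESC and 3.18% in CPCC. Without Apoe and Dab2 it was 0%, 1.14% and 3.45%. Leaving out the single highest cell moved the summed CPM of each of the 25 listed values beyond its counting interval. Shares of cells per gene moved beyond their interval in 10 of 25 cases at 10 counts and in 3 of 25 after thinning. The CB pools hold 69 to 85 cells each, which limits what a level of 0 in a pool can show.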
